A study of Homo sapiens with 12 samples.

Results

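Gap junctions are plaques of channels that join the cytoplasm of neighbouring cells and pass ions and small metabolites between them. Each of the cells contributes a ring of connexin proteins to a channel, and the connexin a cell makes sets which partners it can couple with and what passes. Pannexins have a similar membrane topology but mostly form channels to the outside of the cell, through which ATP is released. Connexin levels often change in carcinomas, and GJA1 (connexin 43) is the most widely expressed member of the family.

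The genes described are the connexin genes GJA1, GJB2 (connexin 26), GJB5 and GJC1 (connexin 45) and the pannexin gene PANX1, which is not itself a connexin. They were taken by symbol, as every probe set annotated to only 1 of these symbols, which gave 11 probe sets of the 41091 with a single symbol, and 5 genes of 19775. GJA1, GJB2 and GJB5 have 1 probe set each, and GJC1 and PANX1 have 4 each. These genes were chosen by the measured differences in signal between the cell lines, which were known when the genes were proposed. Those differences are therefore given as a description without a test, and tests of these genes are given only for the electric field. Genes of further lists were also tested between the lines. Those lists were likewise chosen with earlier results of these data known.

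Expression was measured in 2 established human cell lines from a lung adenocarcinoma, CL1-5, a subline selected for invasiveness, and CL1-0, from which it was selected. The groups were CL1-5 under a direct-current electric field of 300 mV/mm, CL1-5 without a field (0 mV/mm), CL1-0 under the same field and CL1-0 without a field, each with 3 biological replicates on 1 Affymetrix array each, 12 arrays in all. All cells grew overnight in a microfluidic chip in medium with 10% serum, were held for 2 h in serum-free medium with or without the field, and were detached with trypsin before RNA extraction. No source used here says that replicates came from separately thawed or passaged cultures, so the tests measure the spread between these samples. Values are linear array signals, given per array in the order of replicates 1, 2 and 3, and levels and differences are on the log2 scale with the SD over 3 arrays or the standard error (SE) of the fit. The array median, between 60.7 and 72.4, serves as a low mark, since detection calls are not used here.

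Replicate 1 of every group stood apart by the control RNA dap, which is spiked into samples before labelling. Its signal was 5.92 to 21.2 on these 4 arrays and 789 to 1063 on the remaining 8. The epithelial keratin genes KRT18 and KRT8 gave signals of 2422 to 29022 and 211 to 4068, above the array median on all 12 arrays, while KRT19 passed it on 2 arrays. The epithelial genes EPCAM and CDH1 were at 16.3 to 56.2 and 16.4 to 177 in CL1-5, against 138 to 1539 and 183 to 1506 in CL1-0. Of the lung lineage genes, NKX2-1 (70.5 to 290) and SFTPB (77.4 to 284) were above the array median on all 12 arrays, NAPSA on 10 and SFTPC on 6, and FOXA2 was at 264 to 723 in CL1-5 and 8.39 to 106 in CL1-0. Of 12 markers of other cell types with a probe set, 4 stayed below the array median on every array, the leukocyte genes PTPRC and CD14 and the endothelial genes CDH5 and VWF. The fibroblast gene COL1A1 (111 to 390) and the endothelial gene PECAM1 (174 to 1559 in CL1-5, 66.9 to 168 in CL1-0) were above it on all 12. The remaining 6 were above it on some, DCN on 7 arrays, PDGFRA, KDR and the leukocyte gene CD3E on 6 each, COL3A1 on 3 and COL1A2 on 2, with PDGFRA at 109 to 209 in CL1-5 and 3.94 to 21.4 in CL1-0. The part of these genes in the results was not tested. In bulk RNA, fewer cells that express a gene and less RNA of it per cell cannot be told apart.

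The promoters of GJA1 and GJB2 are shown because these genes differed most between the lines, and in opposite directions. They run from 250 bases before to 50 after the start site, 5′ to 3′ on the gene's strand, from RefSeq on GRCh38.p14, at chr6:121435396-121435695 (plus strand) for GJA1 and chr13:20192889-20193188 (minus strand) for GJB2. Capitals mark motif matches on either strand.
GJA1: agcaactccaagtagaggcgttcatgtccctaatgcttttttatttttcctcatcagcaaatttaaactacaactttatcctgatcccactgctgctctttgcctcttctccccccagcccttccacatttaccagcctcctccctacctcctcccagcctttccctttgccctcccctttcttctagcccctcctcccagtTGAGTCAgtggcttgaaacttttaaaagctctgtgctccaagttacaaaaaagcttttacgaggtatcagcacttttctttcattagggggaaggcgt
GJB2: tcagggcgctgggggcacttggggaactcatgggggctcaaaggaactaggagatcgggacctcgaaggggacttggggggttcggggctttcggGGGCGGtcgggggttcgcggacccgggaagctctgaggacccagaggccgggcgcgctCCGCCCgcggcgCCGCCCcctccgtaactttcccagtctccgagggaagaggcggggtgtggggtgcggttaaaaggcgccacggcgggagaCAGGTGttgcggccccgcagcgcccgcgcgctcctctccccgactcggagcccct

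The GJA1 window holds 1 match to the AP-1 motif TGANTCA, 48 bases before the start site, a motif found in 7.71% of 35116 promoters of this length. The GJB2 window holds 3 matches to the Sp1 motif GGGCGG (45% of promoters) and 1 to the E-box CAGGTG (20.6%), which lies 5 bases before the start site. Neither window holds TATAAA (11.5% of promoters), GJA1 has no GGGCGG or CAGGTG, and GJB2 has no TGANTCA. The marked matches do not overlap each other. The GC content is 47% in the GJA1 window and 71.7% in that of GJB2, beside a median of 58.7% over all promoters. PANX1 has a window in the table as well, with 1 Sp1 match and a GC content of 62.3%. GJB5 and GJC1 have none. These matches describe the letters only, and binding was not measured.

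**Figure D1:**
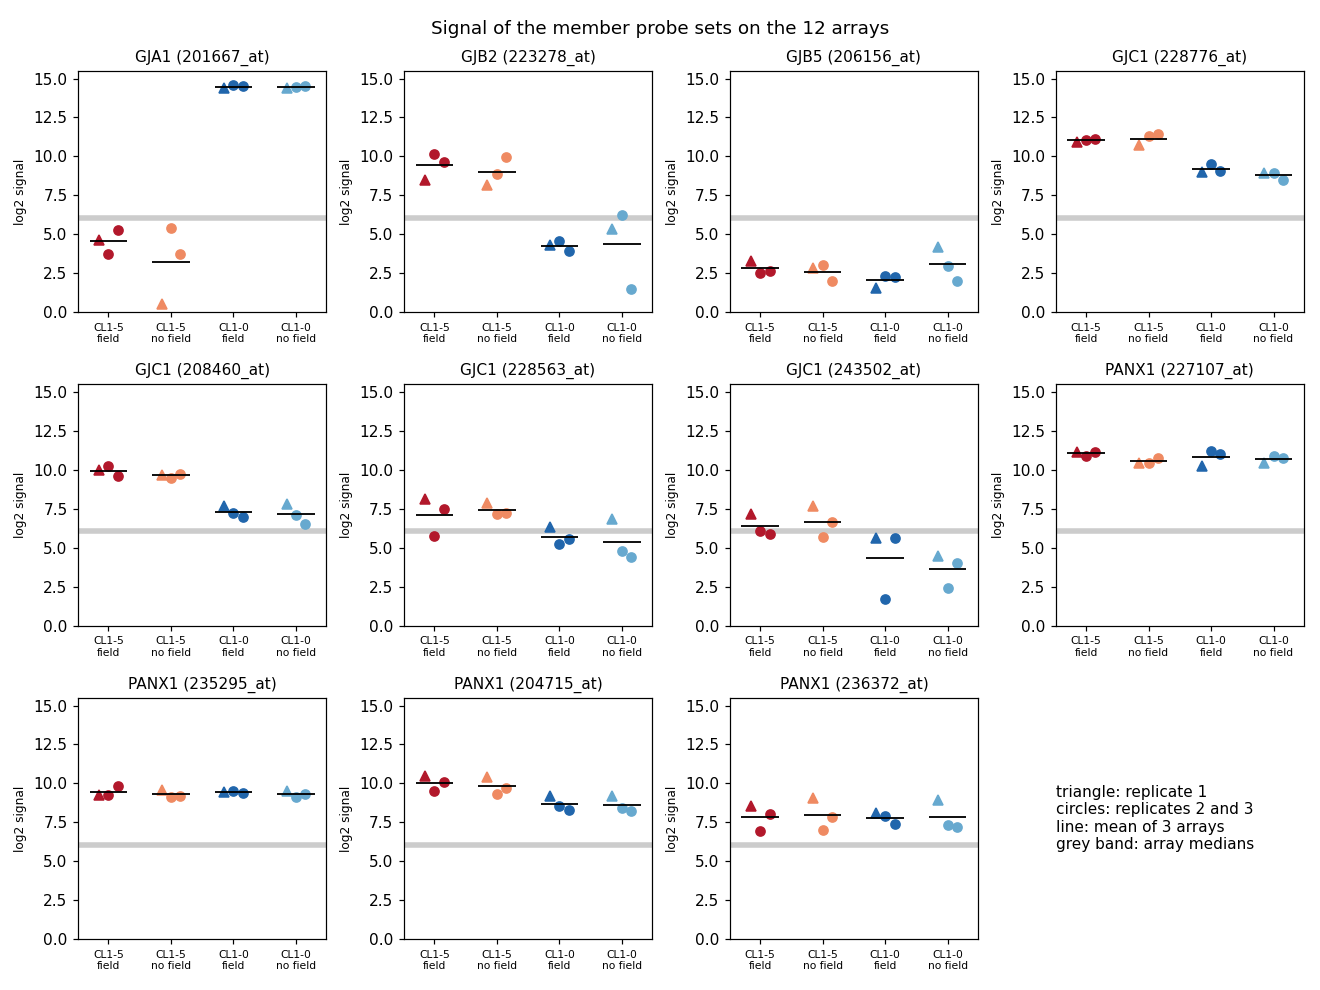
Signal (log2, vertical axis) of the 11 probe sets in the 4 groups (horizontal axis), 1 point per array, with the mean as a line and the range of array medians as a grey band. GJA1 lies far above the band in CL1-0 and below it in CL1-5, GJB2 and GJC1 are higher in CL1-5, and GJB5 is below the band on all arrays.

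GJA1, whose product connexin 43 couples cells in many epithelia and in heart muscle, was a CL1-0 gene in these samples. Its probe set (201667_at) gave signals of 25.3, 13.3 and 38.7 in CL1-5 under the field and 1.42, 43.0 and 13.1 in CL1-5 without it, against 21169, 24306 and 23241 in CL1-0 under the field and 21562, 22260 and 22996 in CL1-0 without it. All 6 CL1-5 arrays lay below their array median and all 6 CL1-0 arrays far above it, without overlap. The mean level was 4.56 ± 0.77 in CL1-5 and 14.48 ± 0.10 in CL1-0 under the field, and 3.21 ± 2.50 in CL1-5 and 14.44 ± 0.05 in CL1-0 without it (SD, n = 3). The line difference was −9.92 ± 0.89 under the field and −11.23 ± 0.89 without it (SE). Since the CL1-5 values are too low to be ordered, the fold was also taken with every value under its array median raised to that median, which leaves GJA1 at least 347-fold lower in CL1-5 under the field. This is an estimate that does not cover the spread over arrays. On the 8 arrays with spike-in signal alone the log2 difference was −10.03 under the field and −9.90 without it, and between the single replicate 1 arrays it was −9.71 and −13.89. The more negative value without the field rests on replicate 1 of CL1-5, at a signal of 1.42, and is −9.88 without that array.

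GJB2, the connexin 26 gene known from inherited deafness and from skin and glandular epithelia, ran the other way. Its signals (223278_at) were 355, 1156 and 814 in CL1-5 under the field and 284, 475 and 983 in CL1-5 without it, against 19.8, 24.0 and 14.9 in CL1-0 under the field and 41.0, 74.0 and 2.84 in CL1-0 without it. The lines did not overlap, and the only CL1-0 array above its median was replicate 2 without the field, at 74.0. Mean levels were 9.44 ± 0.87 in CL1-5 and 4.26 ± 0.35 in CL1-0 under the field, and 8.99 ± 0.90 in CL1-5 and 4.36 ± 2.51 in CL1-0 without it (SD, n = 3). The line difference was 5.17 ± 0.98 under the field and 4.64 ± 0.98 without it (SE), and GJB2 was at least 10.5-fold and 7.55-fold higher once low values were set to the array median. Without replicate 3 of CL1-0 without the field, at 2.84, the log2 difference without the field was 3.21. Within the arrays with spike-in signal it was 5.68 under the field and 5.56 without it, and on replicate 1 alone 4.16 and 2.79.

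GJC1 encodes connexin 45, a low-conductance connexin best known from the cardiac conduction system and early embryo, and all 4 of its probe sets had higher means in CL1-5. The brightest (228776_at) gave 1962, 2092 and 2230 in CL1-5 under the field and 1662, 2501 and 2748 in CL1-5 without it, against 510, 741 and 536 in CL1-0 under the field and 493, 487 and 355 in CL1-0 without it. Here both lines were above the array median throughout, so that the fold can be read directly. The line difference was 1.83 ± 0.25 under the field (3.56-fold) and 2.36 ± 0.25 without it (5.12-fold; SE, n = 3 per line).

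The second GJC1 probe set (208460_at) gave 1036, 1217 and 766 in CL1-5 and 202, 147 and 127 in CL1-0 under the field. Without the field it gave 799, 728 and 868 in CL1-5 and 228, 135 and 91.3 in CL1-0. Its line differences were 2.67 under the field (6.36-fold) and 2.50 without it (5.65-fold), the first of them larger than the 1.83 of the brightest set, and the lines again did not overlap. The remaining GJC1 probe sets were dimmer. The probe set 228563_at differed by 1.40 under the field, where the lines overlapped, and by 2.07 without it, and its highest signal in each of the 4 groups was on replicate 1. The probe set 243502_at, below the array median on all CL1-0 arrays, differed by 2.05 and 3.04, which is at least 1.30-fold under the field and 1.76-fold without it by the same bound. Its highest signal in each group was also on replicate 1. The 4 probe sets share a direction, with SEs of 0.72 and 1.02 for the dimmer pair in a fit of all probe sets other than controls.

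PANX1, the pannexin that forms an ATP release channel in many cells, differed by the probe set read. The brightest (227107_at) gave 2276, 1880 and 2294 in CL1-5 and 1222, 2381 and 2059 in CL1-0 under the field, and 1392, 1361 and 1765 in CL1-5 and 1393, 1937 and 1773 in CL1-0 without it. The lines overlapped, with a difference of 0.24 ± 0.26 under the field and −0.17 ± 0.26 without it (SE). The probe set 204715_at, the only one annotated with the gene's RefSeq transcript, gave 1438, 736 and 1078 in CL1-5 and 580, 376 and 315 in CL1-0 under the field. Without the field it gave 1390, 631 and 820 in CL1-5 and 589, 345 and 300 in CL1-0. This probe set did not overlap between the lines, at 1.35 under the field (2.55-fold) and 1.19 without it (2.28-fold), with the highest signal of each group on replicate 1.

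The PANX1 probe sets 235295_at and 236372_at overlapped between the lines in both settings. They differed by −0.03 and 0.03 under the field and by −0.05 and 0.16 without it. The highest signal of 236372_at in each group was on replicate 1. All 4 PANX1 probe sets were above the array median on every array. Averaged over its 4 probe sets, PANX1 differed by 0.40 under the field and 0.28 without it.

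GJB5, a connexin of skin and placenta, had no signal above the array median on any array (206156_at). Signals were 9.92, 5.71 and 6.12 in CL1-5 and 2.97, 5.05 and 4.70 in CL1-0 under the field, and 7.16, 8.02 and 3.92 in CL1-5 and 18.5, 7.86 and 4.01 in CL1-0 without it. Values this low have no order, also where, as under the field, those of the lines do not overlap. GJB5 is the only 1 of the 5 genes that did not pass the filter of at least 3 arrays above the array median.

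Of the 10 probe sets that passed, 6 had no overlap between the lines under the field, 5 higher and 1 lower in CL1-5. Among all probe sets that passed, 30.8% had none, 14.6% higher and 16.2% lower. Without the field it was 7 of 10, 6 higher and 1 lower, beside 28.8% of all, 14.3% higher and 14.5% lower. The genes were chosen on these differences, so nothing is read from the counts. Within each line, the order of a gene's levels with and without the field was smaller than the spread for GJA1, GJB2 and GJB5, whose groups overlapped. The exceptions were GJC1 in CL1-0 and PANX1 in CL1-5, each by its brightest probe set.

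**Figure D2:**
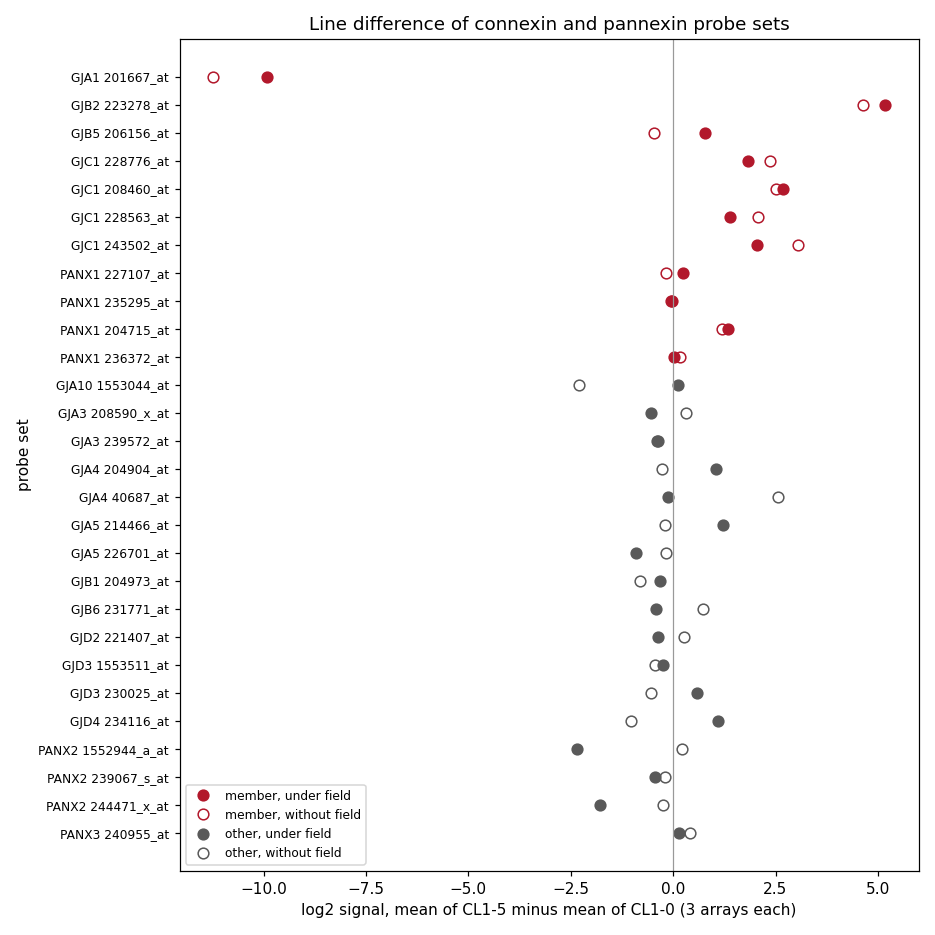
Difference of mean log2 signal, CL1-5 minus CL1-0 (horizontal axis), for the 11 probe sets of the described genes (red) and 17 of other connexin and pannexin genes (grey), under the field (filled) and without it (open). GJA1 stands at −9.92 and −11.23, GJB2 at 5.17 and 4.64, and the GJC1 probe sets between 1.40 and 3.04.

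The field was the treatment of the study, and whether it changed these genes within 2 h was tested in a limma fit of 13882 genes. None of the 4 genes that passed the filter was called, beside 0% of all genes called in CL1-5 and 0% in CL1-0. For GJA1 in CL1-5, with 0 of 6 arrays above the array median, and GJB2 in CL1-0, with 1 of 6, the values are too low for this to bear on a response. At an unadjusted p under 0.05, limma gave 258 genes in CL1-5 and 133 in CL1-0, and none of the 4 genes was among them. Both counts are smaller than this threshold would give among 13882 genes without any change, so the p-values of this fit are conservative. The field averaged over both lines and the difference of its effect between them also gave 0% of all genes and none of the 4.

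PANX1 came nearest in CL1-5. By its brightest probe set the field difference was 0.52 ± 0.26 (1.43-fold; SE, n = 3 per group), with a limma adjusted p of 1 (unadjusted p = 0.0685). The 95% interval, here and below from the fit of all probe sets that passed, was −0.06 to 1.09. A fit that paired same-numbered arrays within each line gave an SE of 0.14 (limma adjusted p = 0.33). All 3 arrays under the field, at 2276, 1880 and 2294, lay above the 3 without it, at 1392, 1361 and 1765, and the replicate pairs differed by 0.71, 0.47 and 0.38. It was the only 1 of 10 probe sets without overlap in CL1-5, where 5.47% of all probe sets that passed did not overlap. The other PANX1 probe sets overlapped, with field differences of 0.22 (204715_at), 0.13 (235295_at) and −0.14 (236372_at), and the average over all 4 was 0.18. In CL1-0 the brightest probe set differed by 0.11 ± 0.26, and the difference between the lines was 0.41 ± 0.37 (limma adjusted p = 1).

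GJC1 came nearest in CL1-0, by its brightest probe set. The 3 arrays under the field, at 510, 741 and 536, lay above the 3 without it, at 493, 487 and 355, a difference of 0.42 ± 0.25 with a 95% interval of −0.14 to 0.97 (limma adjusted p = 1, unadjusted p = 0.12). It was the only 1 of 10 probe sets without overlap in CL1-0, where 3.68% of all probe sets that passed did not overlap, and the replicate pairs differed by 0.05, 0.60 and 0.59. The other GJC1 probe sets differed by 0.14 (208460_at), 0.35 (228563_at) and 0.71 (243502_at), with overlap. In CL1-5 the brightest probe set stood at −0.11 ± 0.25, and the difference of the field effect between the lines was −0.52 ± 0.35 (limma adjusted p = 1).

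GJA1 is measured most tightly in CL1-0, where its field difference was 0.04, with pair differences of −0.03, 0.13 and 0.02. The SE of 0.89 comes from a fit whose spread is shared over the 4 groups and is mostly that of the very low CL1-5 values. In CL1-5 the field difference was 1.35 ± 0.89, with pair differences of 4.16, −1.69 and 1.57, and it was −0.02 once values under the array median were raised to it. GJB2 differed by 0.44 ± 0.98 in CL1-5 and by −0.09 ± 0.98 in CL1-0, with pair differences of 0.32, 1.28 and −0.27 in CL1-5 and of −1.05, −1.63 and 2.39 in CL1-0. The 95% interval of GJB2 in CL1-5, −1.72 to 2.61, spans changes of several fold, so that a moderate response of this gene was not detectable in this fit. Its spread is again shared over the 4 groups. The SD of GJB2 was 0.87 and 0.90 in CL1-5 with and without the field, and 0.35 and 2.51 in CL1-0. With same-numbered arrays paired within each line, the SE in CL1-5 was 0.66. GJB5, in a fit without the filter, differed by 0.21 ± 0.75 in CL1-5 and −1.02 ± 0.75 in CL1-0 (limma adjusted p = 1 for both).

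**Figure D3:**
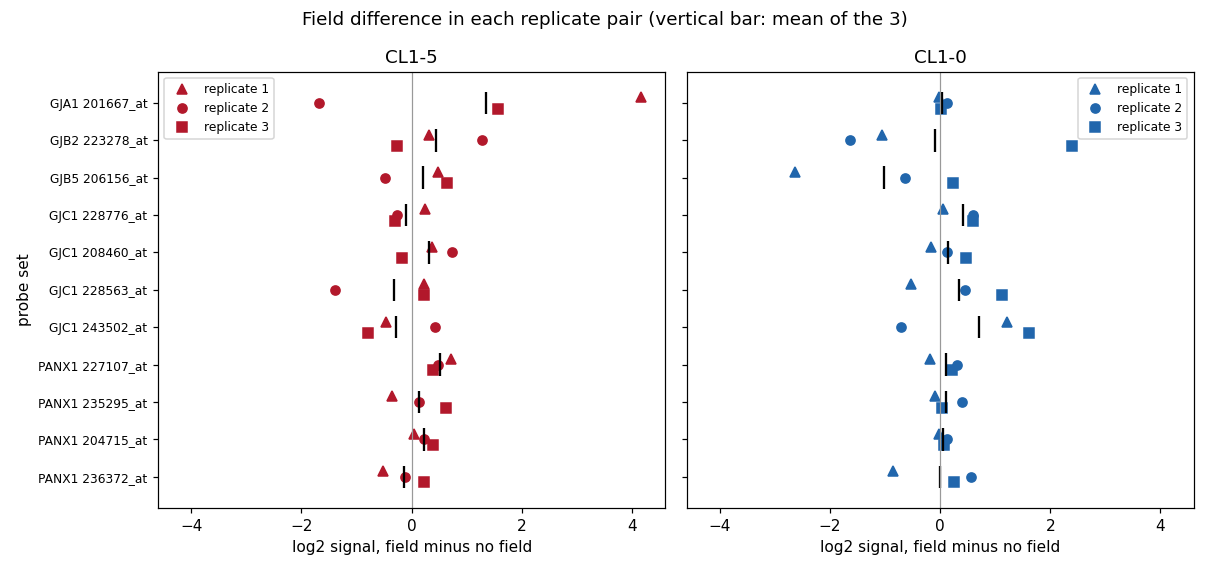
Field difference (log2 signal with minus without the field, horizontal axis) of the 11 probe sets in each replicate pair, in CL1-5 and CL1-0, with the mean as a bar. In CL1-5 the 3 pairs of PANX1 227107_at lie at 0.38 to 0.71, and those of GJA1 spread from −1.69 to 4.16.

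Of 19 other connexin and pannexin genes, 11 have a probe set of their own symbol alone and 5 passed the filter (GJA3, GJD2, GJD3, PANX2 and PANX3). In the limma fit 0 of these 5 differed between the lines, beside 19.4% of all genes under the field and 18% without it. It was also 0 at an unadjusted limma p under 0.05, beside 4343 of 13882 genes under the field and 4099 without it. The median difference of these 5 was −0.38 under the field and −0.20 without it, where all genes had −0.08 and −0.03. The list was left after the described genes had been taken out, so that its count is no independent result. The field gave 0 of 5 in either line.

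GJA3 (connexin 46), known from the lens, was above the array median on all 12 arrays, at signals of 340 to 1131, by 1 of its probe sets (239572_at), while the other (208590_x_at) was below it on all 12, at 4.71 to 45.1. By the brighter set its level was 9.37 ± 0.85 in CL1-5 and 9.77 ± 0.26 in CL1-0 under the field, and 9.50 ± 0.35 in CL1-5 and 9.86 ± 0.43 in CL1-0 without it (SD, n = 3), with line differences of −0.39 ± 0.39 and −0.37 ± 0.39 (SE). PANX2, a pannexin of the nervous system, was also above it on all 12, at 86.2 to 502 (239067_s_at), with line differences of −0.43 ± 0.65 and −0.20 ± 0.65. A dimmer PANX2 probe set (244471_x_at) was lower in CL1-5 under the field by −1.79 ± 0.53 in the fit of all probe sets (limma adjusted p = 0.0455), with signals of 13.7, 58.5 and 37.0 in CL1-5 and 114, 113 and 94.4 in CL1-0. In that fit 4286 of 31890 probe sets were called. Each of the CL1-5 signals lies below its array median, so the size of this difference rests on values too low to be ordered. GJD2 (connexin 36), the connexin of electrical synapses, and GJD3 hovered about the array median, with highest signals of 141 and 164, and PANX3 had no group mean above it. The remaining 6 genes (GJA4, GJA5, GJA10, GJB1, GJB6 and GJD4) had no probe set that passed, and their highest signal was 84.2.

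Proteins that bind connexins or steer their transport, phosphorylation and turnover were taken as a list of 36 genes, of which 31 passed the filter. Results of these data were known when this list and that of ATP release were chosen. Their tests between the lines are therefore no independent result. Under the field 5 were higher and 4 lower in CL1-5, beside 9.81% and 9.63% of all genes, with a median difference of −0.06 against −0.08 over all genes. Without the field 5 were higher and 1 lower, beside 9.03% and 8.93% of all genes, with a median of 0.13 against −0.03. Leaving out single arrays gave 2 to 4 higher and 0 to 1 lower under the field, and 4 to 6 higher and 1 to 2 lower without it, and the counts under the field fell with each of the 6 arrays left out. The calls over all genes fell as well, from 2699 to between 1838 and 2357 under the field. Without the field they went from 2492 to between 1726 and 2221.

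The largest difference in that list was CDH2, N-cadherin, an adhesion molecule that sits beside connexin 43 in junctions of muscle. Its level was 8.97 ± 1.78 in CL1-5 and 4.42 ± 1.83 in CL1-0 under the field, and 9.03 ± 1.51 in CL1-5 and 3.51 ± 1.31 in CL1-0 without it (SD, n = 3). It was higher by 4.55 ± 1.12 (limma adjusted p = 0.0141) and 5.52 ± 1.12 (adjusted p = 0.00489), which bounds the fold at 7.61 or more under the field and 8.28 or more without it. The call under the field ended without replicate 2 of CL1-0 (adjusted p = 0.0591) or replicate 2 or 3 of CL1-5 (0.0571 and 0.0558).

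The caveolins CAV2 and CAV1, membrane coat proteins that associate with connexin 43, were higher in CL1-5 by 1.5 ± 0.35 and 1.44 ± 0.25 under the field (limma adjusted p = 0.0107 and 0.00179) and by 1.79 ± 0.35 and 1.68 ± 0.25 without it (0.00395 and 0.00059). SMURF2, a ubiquitin ligase, was higher without the field by 1.48 ± 0.40 (limma adjusted p = 0.0224), a call that ended without replicate 1 of CL1-0 (0.0784) or replicate 2 or 3 of CL1-5 (0.0764 and 0.097), and with averaged probe sets (0.0613). Under the field it was at 1.27 ± 0.40 (limma adjusted p = 0.0417), a call that ended without any single array other than replicate 1 of CL1-5 (0.0625 to 0.133). It also ended with median-centred arrays (0.0682), no trend (0.0621), no filter (0.05) and averaged probe sets, where the difference was 0.48 (0.395). TJP3, a zonula occludens scaffold, was lower under the field by −1.35 ± 0.40 (limma adjusted p = 0.0324), and by −0.70 with adjusted p = 0.102 once low values were raised to the median. That call also ended without any single array other than replicate 2 of CL1-0 (0.0631 to 0.104), with no filter (0.0593) and on the arrays with spike-in signal (0.0902).

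With the field as the contrast, 0 of the 31 genes passed in either line. The smallest unadjusted p in CL1-5 belonged to CDK1, the mitotic kinase that phosphorylates connexin 43, at −0.46 ± 0.22, and TSG101, an endosomal sorting protein, at 0.28. In CL1-0 it belonged to the protein kinase C genes PRKCE, at 0.47 ± 0.30, and PRKCA, at 0.44. The limma adjusted p was 1 for all of these.

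Genes of ATP release and of the receptors for extracellular ATP and adenosine formed a list of 32, with 18 that passed the filter. Under the field 4 were higher and 0 lower in CL1-5, beside the shares of all genes given above, with a median of 0.08, and without it 3 were higher and 1 lower, with a median of 0.24. LRRC8C, a subunit of volume-regulated anion channels, was higher by 2.06 ± 0.26 under the field (limma adjusted p = 0.000192) and 1.71 ± 0.26 without it (0.000714). ADORA2B, a low-affinity adenosine receptor, was higher by 1.54 ± 0.31 (limma adjusted p = 0.00399) and 1.37 ± 0.31 (0.00845). ANKH, a membrane protein linked to the export of pyrophosphate and ATP, was higher by 1.35 ± 0.35 (limma adjusted p = 0.0176) and 1.70 ± 0.35 (0.00499). Its call under the field ended without replicate 1 of CL1-5 (0.062) or replicate 1 or 2 of CL1-0 (0.0508 and 0.0535).

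P2RX5, an ATP-gated ion channel, was higher in CL1-5 under the field by 0.86 ± 0.21 (limma adjusted p = 0.0142), a call lost without replicate 3 of CL1-0 (0.0673). LRRC8B, another anion channel subunit, was lower without the field by −0.81 ± 0.25 (limma adjusted p = 0.0396). That call ended under each single array left out other than replicate 2 of CL1-5 (0.0727 to 0.125) and with averaged probe sets (0.259), quantile normalization (0.0526) or no filter (0.0553). The field passed the test for 0 of the 18 genes in either line. P2RY6, a receptor for UDP, had the smallest unadjusted p in CL1-5 at 2.68 ± 0.94 (limma adjusted p = 1), with levels of 6.55 ± 0.44 under the field and 3.87 ± 1.92 without it that lie near or below the array median. With low values raised to the median the difference was 0.49. CALHM1, a pore-forming channel gene, followed at −0.99 ± 0.42 in CL1-5, and in CL1-0 the smallest p belonged to P2RX5, at −0.38, and LRRC8D, at 0.21 (limma adjusted p = 1 for each). The CALHM1 levels in CL1-5, 5.29 ± 0.06 under the field and 6.28 ± 0.45 without it, also lie near or below the array median. With low values raised to the median the CALHM1 difference was −0.36.

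The genes most like each described gene were found by the root mean square distance of log2 values over the 12 arrays, each gene centred on its own mean. This is a description, over arrays that share their group, line and replicate number. Nearest to GJA1 were MAP2 (distance 1.11), a neuronal microtubule protein, MYL9 (1.14), a myosin light chain, and NEFH (1.21), a neurofilament protein, where the median gene lay at 5.41. Like GJA1 they were lower in CL1-5, by −10.30, −9.71 and −8.34 under the field and by −9.81, −9.34 and −8.96 without it. Their mean levels in CL1-5, 2.29 to 3.70, also lie far below the array median. The sizes of these differences and the order of the 3 distances therefore rest on values too low to be ordered. Nearest to GJB2 were EPHX4 (0.746), ZNF469 (0.86) and CRYBG1 (0.893), against a median of 2.78. Their mean levels in CL1-0, 3.72 to 5.50, lie below the array median, as do those of GJB2. GJB2, EPHX4 and CRYBG1, but not ZNF469, had their lowest value on replicate 3 of CL1-0 without the field. These distances too rest in part on values too low to be ordered.

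Nearest to GJC1 were RCAN1 (0.189), an inhibitor of calcineurin, the phosphatase gene PTPN21 (0.223) and the tumour suppressor gene NF2 (0.241), where the median gene lay at 1.23. Nearest to PANX1, by its brightest probe set, were CIB1 (0.121), NDUFB8 (0.168) and SLC35E1 (0.171), against a median of 0.62. CIB1 stood at 12.22 under the field and 11.78 without it in CL1-5, and at 11.89 and 11.91 in CL1-0.

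**Figure D4:**
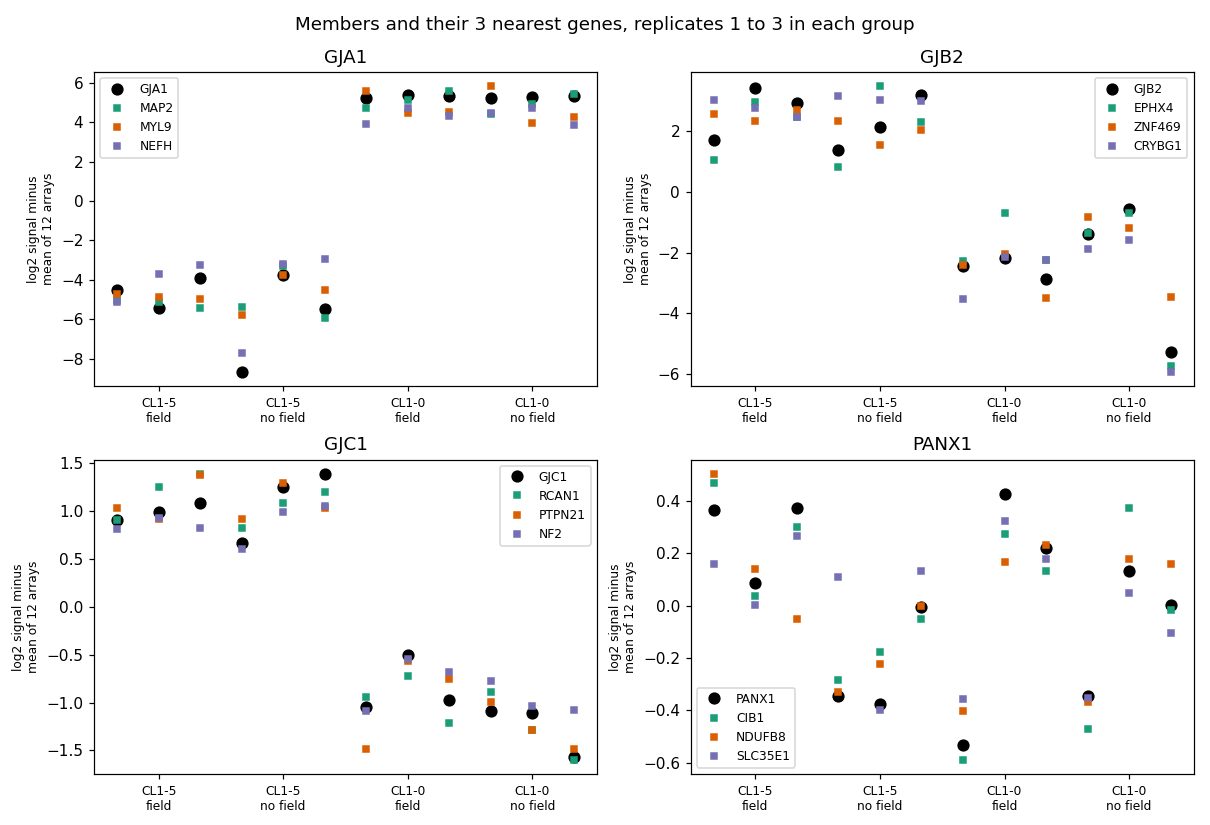
Log2 signal minus the mean of the 12 arrays (vertical axis) for GJA1, GJB2, GJC1 and PANX1 (black circles) and their 3 nearest genes (coloured squares), replicates 1 to 3 from left to right in each group. GJA1, MAP2, MYL9 and NEFH share a step between the lines, and the PANX1 panel spans less than 1.2 log2 units.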

How the data were processed

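The deposited values are array signals in linear intensity units, made by the authors with the MAS5 algorithm per the submitters' processing notes. The MAS5 version and any filter are not stated there. Their trimmed mean (2% left out at each end) was 500.07 to 500.08 on every array, so no further scaling was done. Values under 1 (3691) were set to 1 and taken to log2. Of 54675 probe sets, 62 of them controls, 31890 were above their array's median on at least 3 arrays, and each gene was read by its brightest probe set of a single symbol (13882 genes). Gene names come from GEO's platform annotation.

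Group means were fitted to all 12 arrays in R 4.3.3 by limma 3.58.1, using lmFit and a trended eBayes, with Benjamini-Hochberg adjustment over all genes at 0.05. The median SE of a comparison of 2 groups was 0.367. The steps were tested on simulated data. The described genes and lists were chosen with earlier results of these data known. Genes named from the lists are the 4 with the largest difference among those past the test without overlap, or the 2 with the smallest p, and other connexins with a group above the array median. Those named beside them were chosen after their values were seen.

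As deviations from their group means, same-numbered arrays correlated at 0.551, 0.423 and 0.187 in CL1-5 and at 0.609, 0.346 and 0.363 in CL1-0. Unlike-numbered arrays of replicates 2 and 3 correlated at 0.284 and 0.23 in CL1-5 and at 0.173 and 0.269 in CL1-0. Replicate 1 against replicates 2 or 3 gave −0.505 to −0.297 in CL1-5 and −0.471 to −0.382 in CL1-0. These values set replicate 1 apart, and do not establish pairing by number between replicates 2 and 3. The numbers were treated as pairs within a line in an alternative fit with a replicate block. The number of arrays limits the precision.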

Additional observations from a re-analysis of the deposited data

How the results depend on the processing

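None of GJA1, GJB2, GJC1 and PANX1 passed the test for the field under any of the alternatives run, which were quantile normalization, median-centred arrays, a pseudocount at the 10th percentile (5.05), low values raised to the array median, no filter or a tighter one (above the 60th percentile on 6 arrays), averaged or all probe sets, no trend, a fit of the compared groups alone, the replicate block within a line or over both, a block for the spike-in batch, the spike-in arrays alone, and each array left out. The replicate block within a line, with which limma adjusted p in CL1-5 was 0.33 for PANX1, 0.554 for GJA1, 0.851 for GJB2 and 0.865 for GJC1, changed no call of these genes. In CL1-0 all 4 had an adjusted p of 1 with it.

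Of 360 such field differences, 341 kept their sign. GJA1 in CL1-5 turned to −0.02 with low values raised to the median and −0.06 on the spike-in arrays, its difference between the lines to −0.06 and −0.13, and GJA1 in CL1-0 to −0.02 with median-centred arrays. GJB2 in CL1-0 turned to 0.38 on the spike-in arrays. Leaving out arrays gave −0.01 to 2.45 for GJA1 in CL1-5, −0.01 to 0.09 in CL1-0 and −0.05 to 2.41 for the difference between the lines. It gave −1.52 to 0.83 for GJB2 in CL1-0, −0.54 to 0.64 averaged over the lines and −0.39 to 1.96 between them, −0.33 to 0.04 for GJC1 in CL1-5 and −0.09 to 0.39 for PANX1 in CL1-0. The cause was not tested.

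The line differences of GJA1, GJB2 and GJC1 kept their sign in all of these, and that of PANX1 did not, at −0.09 to 0.43 under the field and −0.31 to 0.28 without it. Of the other connexin and pannexin genes, 1 (PANX2) was called under the field with all probe sets, against 0. Over all genes, a block shared by both lines called 5289 genes under the field and 4926 without it, a block for the spike-in batch 5207 and 4852, and the spike-in arrays alone 4416 and 4284, against 2699 and 2492. The block shared by both lines, chosen after seeing the data, gave 6 higher and 7 lower connexin partners under the field and 8 and 7 without it, and 5 higher and 2 lower ATP and purinergic genes in both settings. With the replicate block as a random block within the line, also added, LRRC8B and, under the field, TJP3, PRKCE and MAPRE1 lost their calls (limma adjusted p = 0.0545, 0.0784, 0.0694 and 0.0807).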
